A study of Mus musculus with 19 samples.

Results

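miR-218 is a microRNA (miRNA) made from 2 hairpins, one in an intron of Slit2 and one in an intron of Slit3. Its members were taken by name from the deposited table: miR-218 itself and the star arms miR-218-1* and miR-218-2*, 3 of 528 miRNA names, all of which passed the filter on low values. miR-218 was chosen by its levels in these same libraries, so its levels and those of its star arms are given as a description with no test. A test is given for the balance between its 2 star arms, which was not used in that choice. That test was itself chosen with earlier results of these data known. The share of star reads has mature miR-218 in its denominator and is also given as a description.

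The libraries held small RNA of 19 to 24 nt precipitated with Ago2, the protein that holds miRNAs on their targets, from neocortex or cerebellum of mice at P56 (postnatal day 56). Whole Neocortex (C57BL/6 & BALB/c mice) and whole Cerebellum (C57BL/6 & black swiss) were precipitated with anti-Ago2 from 1 tissue per library. The other 5 groups were precipitated with anti-myc, so that the RNA came from cells carrying a Myc-tagged protein: Camk2a (neocortex, C57BL/6 & BALB/c, 1 tissue), Gad2, PV and SST (neocortex, C57BL/6 & 129, 4 pooled tissues each) and Purkinje (cerebellum, C57BL/6 & black swiss, 3 pooled tissues). Each group had n = 3 libraries, except PV and SST with n = 2. The labels name the groups after Camk2a, a gene of excitatory neurons, Gad2, a GABA-synthesis gene, PV (parvalbumin) and SST (somatostatin), which mark separate classes of interneurons, and the Purkinje cell, the output neuron of the cerebellar cortex. They do not give the promoter that drove the tagged protein, nor whether replicates are separate animals, so the spread between libraries may be partly technical. Antibody, strain and number of pooled tissues differ with the group, and their part in any difference cannot be told apart from the group.

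A miRNA is cut from a hairpin in which 2 arms pair with each other. One strand, the mature miRNA, stays in Argonaute, while its partner, the star strand, is mostly discarded. Slit proteins are secreted ligands of Robo receptors that guide axons, Robo mRNAs are known targets of miR-218, and miR-218 is best known for its high level in motor neurons.

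The sequences below show why the star arms carry information that the mature miRNA does not. Both hairpins give an identical mature miR-218, so a read of it cannot be assigned to Slit2 or Slit3. The first 3 lines are the mature and star sequences. In miR-218 the capitals mark the seed (bases 2 to 8), which pairs with targets, and in the star arms the capital marks the single base that differs over the stretch the 2 arms share. In the 2 hairpin lines the capitals mark the mature arm first and the star arm second. All are from RefSeq (GRCm38.p6), and all 3 names and both hairpins matched.
miR-218: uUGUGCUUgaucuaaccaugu
miR-218-1*: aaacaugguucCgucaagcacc
miR-218-2*: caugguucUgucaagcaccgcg
Mir218-1 hairpin: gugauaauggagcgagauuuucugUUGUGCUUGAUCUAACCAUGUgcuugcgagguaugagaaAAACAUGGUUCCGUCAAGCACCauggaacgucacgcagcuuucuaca
Mir218-2 hairpin: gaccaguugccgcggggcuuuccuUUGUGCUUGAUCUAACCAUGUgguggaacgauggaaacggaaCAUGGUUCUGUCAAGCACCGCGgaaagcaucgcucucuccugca

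miR-218-2* begins 3 bases further along than miR-218-1*. Over the 19 bases the star arms share, 18 were identical, and the difference was C12U, with positions counted from 1 at the 5′ end of miR-218-1*. A read that ends before the last bases of miR-218-2* is therefore told apart from miR-218-1* by 1 base. The handling of mismatched reads is not stated in the sources used here, and its part in the star values was not tested. Of 1679 mature mouse names in RefSeq, only miR-7002-3p had the seed of miR-218, only miR-496b that of miR-218-1*, and none that of miR-218-2*.

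The 2 hairpins are 110 nt each and shared 83 of 117 aligned columns (70.9%). The loop between the arms was 18 nt in Mir218-1 and 21 nt in Mir218-2. Mir218-1 lies at chr5:48223942-48224051 on the plus strand, in intron 14 of the 36-exon principal transcript of Slit2 (GENCODE M21), 3861 bases after one exon and 601 bases before the next. Mir218-2 lies at chr11:35616816-35616925 on the plus strand, in intron 14 of the 36-exon principal transcript of Slit3, 4379 and 5082 bases from its exons. The intron of Slit2 is 4572 bases long and that of Slit3 is 9571. Both hairpins are on the strand of their host gene, at the same intron number of 2 related genes. These coordinates are of GRCm38 and were not set against the files, whose reads were mapped to mm9.

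Levels are given in reads per 1000000 miRNA reads of the library (RPM), a share of the miRNAs bound to Ago2 and not an amount per cell. Library depth was 1229834 to 14249087 miRNA reads. In these bulk precipitates, fewer cells of a type and less RNA per cell cannot be told apart.

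miR-218 was most abundant in PV and Camk2a cells and least abundant in Purkinje cells. In PV cells it stood at 6559 and 6444 RPM, a mean of 6502 ± 81.1 RPM (SD, n = 2). In Camk2a cells it stood at 5575.5, 6714 and 5721 RPM, a mean of 6004 ± 619.6 RPM (SD, n = 3). The PV and Camk2a libraries overlapped, and the ratio of their means was 1.08. In both groups miR-218 ranked between 21 and 28 among the miRNAs of a library and took about 0.650% (PV) and 0.600% (Camk2a) of reads.

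Whole Cerebellum came next, with 3852, 3442 and 3496 RPM (mean 3597 ± 223, SD, n = 3), below every Camk2a library. Whole Neocortex stood at 2124, 3027 and 2984 RPM (mean 2711 ± 509, SD, n = 3), with replicate 1 lower than the other two. Gad2 cells stood at 2286, 2478 and 1518 RPM (mean 2094 ± 508, SD, n = 3), with replicate 3 lower than the other two. Neocortex and Gad2 overlapped, so their order is not separated by these libraries, whereas every Cerebellum library lay above every Neocortex library.

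SST cells had 1054 and 1436 RPM (mean 1245 ± 270.2, SD, n = 2), with the higher SST library at 1436 RPM and the lowest Gad2 library at 1518 RPM. Purkinje cells had 142, 167 and 114 RPM (mean 141 ± 26.7, SD, n = 3), at ranks 132 to 138. These Purkinje values rest on 293, 417 and 384 reads of miR-218, far above the limit of 3 reads, which stood between 0.211 and 2.44 RPM over all libraries.

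**Figure D1:**
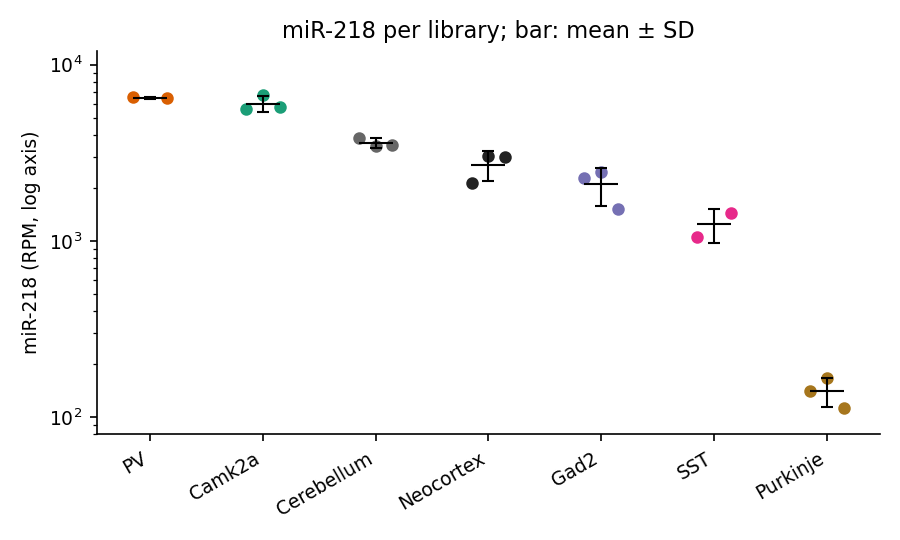
miR-218 in each library, in RPM on a log axis, by group; points are libraries, and bars are the mean ± SD. The Purkinje libraries lie between 114 and 167 RPM, below all others, while PV and Camk2a overlap at the top.

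Of the 21 pairs of groups, 19 did not overlap for miR-218; the overlapping pairs were PV with Camk2a and Neocortex with Gad2. Separation of this kind was common: over the 171 miRNAs that averaged 100 RPM or more across groups, 77.0% of the miRNA and group-pair combinations did not overlap, and the median miRNA had 17 separated pairs. The range of miR-218 from the highest to the lowest group mean was 5.53 on the log2 scale, against a median range of 2.58, and 22 of the 171 miRNAs, miR-218 included, had at least this range.

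The group differences can be stated as log2 changes fitted by limma on log2(deposited value + 1), with their standard errors (SE). The comparisons share groups and are not independent. Whole Cerebellum exceeded whole Neocortex by 0.42 (SE 0.20). Camk2a cells exceeded whole Neocortex by 1.16 (SE 0.20), while Gad2 against Neocortex was -0.39 (SE 0.20) with overlapping libraries, and -0.17 without Gad2 replicate 3. Gad2 against Camk2a was -1.55 (SE 0.20), which is 2.92-fold lower.

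Purkinje against whole Cerebellum was -4.69 (SE 0.20), 25.8-fold lower than the tissue that contains these cells. Purkinje against neocortical Gad2 cells was -3.88 (SE 0.20), 14.7-fold lower. PV against SST was 2.40 (SE 0.24), 5.28-fold higher in PV cells.

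The size of the PV against SST value depended on the scaling. The median of all miRNAs in that comparison was -0.42, and dividing the libraries by TMM factors, which assume that most miRNAs do not differ, moved that median to 0.11 and miR-218 to 3.04. On both scalings miR-218 lay above the median of all miRNAs. In Cerebellum against Neocortex the same scaling moved the median from -0.40 to -0.17 and miR-218 from 0.42 to 0.71.

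Markers of non-neuronal cells were compared between whole tissue and tagged cells. The summed level of the 3 vascular names in the table (arms of miR-126 and miR-143) was 7841 to 8178 RPM in Neocortex and 5810 to 6312 RPM in Cerebellum, and 295 to 993 RPM over the tagged groups. The 13 blood and microglia names summed to 1944 to 4204 RPM in Neocortex, 2882 to 3349 RPM in Cerebellum, 1283 to 1592 RPM in Purkinje and 83.0 to 381 RPM in the other tagged groups. Most of the Purkinje sum was miR-486, at a mean of 1426 RPM against 351 RPM in Cerebellum. By contrast, miR-451 had means of 40.2 and 2108 RPM, and miR-150 of 3.64 and 455 RPM. Of 12 names tested by limma, 8 were lower and 1 higher in Purkinje than in Cerebellum at an adjusted p under 0.05. Of all miRNAs, 68.6% passed there. The 4 oligodendrocyte names summed to 2743 to 3249 RPM in Purkinje, close to Cerebellum (3364 to 3564 RPM), and to 666 to 1219 RPM in the other tagged groups against 2155 to 3401 RPM in Neocortex. In Purkinje and Cerebellum most of this sum was miR-338-3p, at means of 2946 and 3335 RPM. The 6 ependymal and choroid names summed to 1457 to 1926 RPM in Cerebellum and 10.95 to 18.9 RPM in Purkinje. In the neocortical groups they were not lower in all tagged cells: Neocortex had 97.4 to 125 RPM, Camk2a 73.1 to 99.4, Gad2 99.0 to 123, PV 118 to 137 and SST 425 to 430 RPM (summed level). SST was thus above PV for the sum of this list, as it was for the sum of the vascular names (734 to 766 against 295 to 330 RPM). The 3 vascular names did not all go that way: in PV against SST 1 was called higher and 2 lower by limma. Of all miRNAs, 29.1% were called in that comparison. Names at 0 in all 3 Purkinje libraries were miR-144*, miR-146a*, miR-223*, miR-34b-3p and miR-34c*, and no vascular or oligodendrocyte name was at 0 in any group. Of these, miR-146a* and miR-223* were also at 0 in all other tagged groups, miR-146a* in Cerebellum too, and miR-144* in Camk2a and SST. Only miR-34b-3p and miR-34c* were at 0 in Purkinje alone. The part of these cell types in the differences of miR-218 was not tested.

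The star arms, which do tell the hairpins apart, were rare. At the highest they reached 16.8 RPM (miR-218-2* in Camk2a replicate 3) and 5.77 RPM (miR-218-1* in PV replicate 2). Their order over groups was not that of the mature miRNA.

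The star arm of the Slit3 hairpin, miR-218-2*, was highest in Camk2a cells, at 16.4, 15.1 and 16.8 RPM (mean 16.1 ± 0.887, SD, n = 3). In whole Neocortex it stood at 11.2, 14.6 and 10.1 RPM (mean 12.0 ± 2.38, SD, n = 3), below all Camk2a libraries. PV cells had 6.24 and 5.60 RPM (mean 5.92 ± 0.455, SD, n = 2).
Cerebellum had 4.07, 6.68 and 4.45 RPM (mean 5.07 ± 1.41, SD, n = 3), and Gad2 had 3.37, 2.02 and 6.73 RPM (mean 4.04 ± 2.42, SD, n = 3). PV, Cerebellum and Gad2 overlapped. SST cells had 2.35 and 3.66 RPM (mean 3.00 ± 0.931, SD, n = 2), from 3 and 9 reads, and no miR-218-2* read was found in any Purkinje library.

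The star arm of the Slit2 hairpin, miR-218-1*, was highest in PV cells, at 4.38 and 5.77 RPM (mean 5.07 ± 0.985, SD, n = 2), above every other library. Neocortex had 2.33, 2.44 and 2.13 RPM (mean 2.299 ± 0.157, SD, n = 3), and Gad2 had 2.04, 2.02 and 1.43 RPM (mean 1.83 ± 0.345, SD, n = 3). The lowest Neocortex library lay just above the highest Gad2 library.
Camk2a cells, the highest group for the other star arm, had 1.26, 1.40 and 1.04 RPM (mean 1.24 ± 0.183, SD, n = 3), below Gad2 in every library. SST had 1.56 and 0.814 RPM (mean 1.19 ± 0.530, SD, n = 2), from 2 reads each. Cerebellum and Purkinje libraries had no miR-218-1* read.

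**Figure D2:**
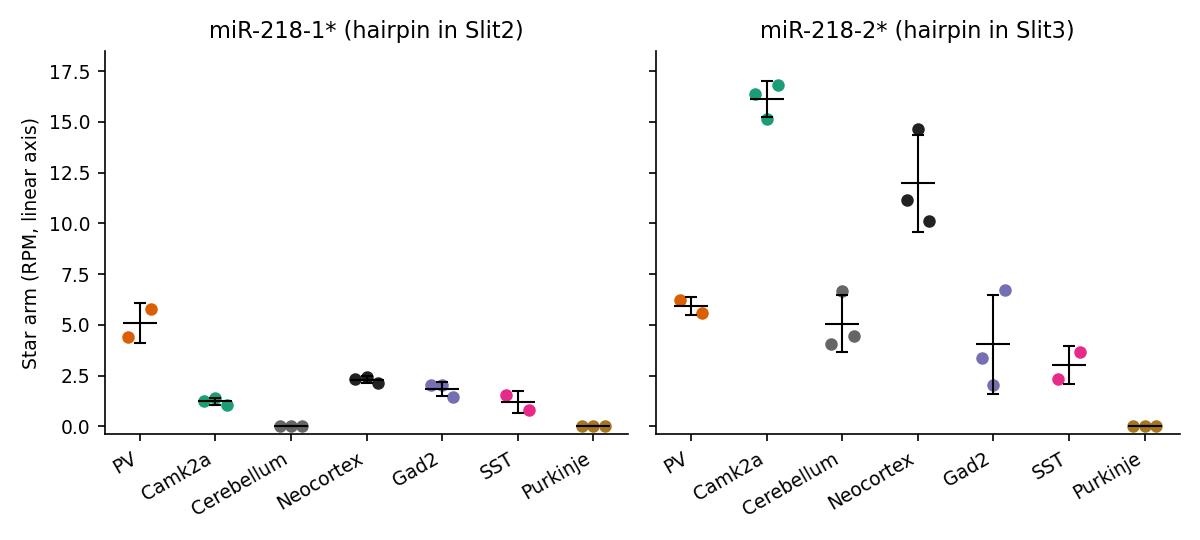
The star arms miR-218-1* and miR-218-2* in each library, in RPM on a linear axis; points are libraries, and bars are the mean ± SD. miR-218-1* is highest in PV cells (mean 5.07 RPM) and miR-218-2* in Camk2a cells (mean 16.1 RPM), while both are at 0 in Purkinje cells.

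PV and Camk2a cells, which overlapped for mature miR-218, were separated for both star arms in opposite directions. miR-218-1* was 4.11-fold higher in PV than in Camk2a cells, and miR-218-2* was 2.72-fold higher in Camk2a than in PV cells. This pair was picked after its values were seen, and the difference was not tested.

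Zero counts limit the levels and do not show absence. With a floor of 3 reads over the group's libraries, miR-218-2* was at least 13.4-fold lower in Purkinje than in Cerebellum, and at least 10.7-fold lower than in Gad2. With the same floor, miR-218-1* was at least 4.84-fold lower in Cerebellum than in Neocortex, and at least 4.84-fold lower in Purkinje than in Gad2. Mature miR-218 was itself 25.8-fold lower in Purkinje than in Cerebellum, so these bounds do not separate the star arm of the Slit3 hairpin from the mature strand.

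In log2 terms, miR-218-2* in Camk2a against Neocortex was 0.44 (SE 0.41), and in Gad2 against Neocortex it was -1.69 (SE 0.41). Gad2 against Camk2a was -2.13 (SE 0.41) for miR-218-2* and 0.52 (SE 0.44) for miR-218-1*, opposite in sign. For miR-218-1*, Camk2a against Neocortex was -0.85 (SE 0.44), opposite in sign to mature miR-218, and Gad2 against Neocortex was -0.33 (SE 0.44). miR-218-2* in Cerebellum against Neocortex was -1.24 (SE 0.41), where mature miR-218 was 0.42. In PV against SST both star arms were positive, 2.06 (SE 0.54) for miR-218-1* and 0.99 (SE 0.51) for miR-218-2*.

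The balance of the 2 star arms was read as the percent of all star reads that were miR-218-1*. It was lowest, among groups with reads of both arms, in Camk2a cells, at 7.15% ± 1.34 (SD, n = 3), from 13 of 182, 18 of 212 and 11 of 189 star reads. Neocortex followed at 16.3% ± 1.76 (SD, n = 3), from 5 of 29, 10 of 70 and 23 of 132 star reads. All 3 Neocortex libraries lay above all 3 Camk2a libraries.

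In Gad2 cells the share was 35.1% ± 16.4 (SD, n = 3), from 29 of 77, 15 of 30 and 10 of 57 star reads. Replicate 3, at 17.5% with a 95% exact binomial (Clopper-Pearson) interval of 8.75% to 29.9%, lay well below replicate 2 at 50.0% (31.3% to 68.7%). PV cells had the highest share, 46.0% ± 6.75 (SD, n = 2), from 47 of 114 and 66 of 130 star reads. Star reads were thus split nearly evenly between the arms in PV cells and were mostly miR-218-2* in Camk2a cells.

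SST cells had 2 of 5 and 2 of 11 star reads, 29.1% ± 15.4 (SD, n = 2), too few to place them. In Cerebellum none of 5, 22 and 8 star reads was miR-218-1*, and 0 of 35 reads allows a share of up to 8.57% by the limit of 3 reads. The exact binomial upper bound of 10.0% lies below the pooled Neocortex value of 16.5% (11.9% to 21.9%) and above the pooled Camk2a value of 7.20% (5.24% to 9.61%). Intervals and limits cover counting error only, since PCR reads are not independent molecules.

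**Figure D3:**
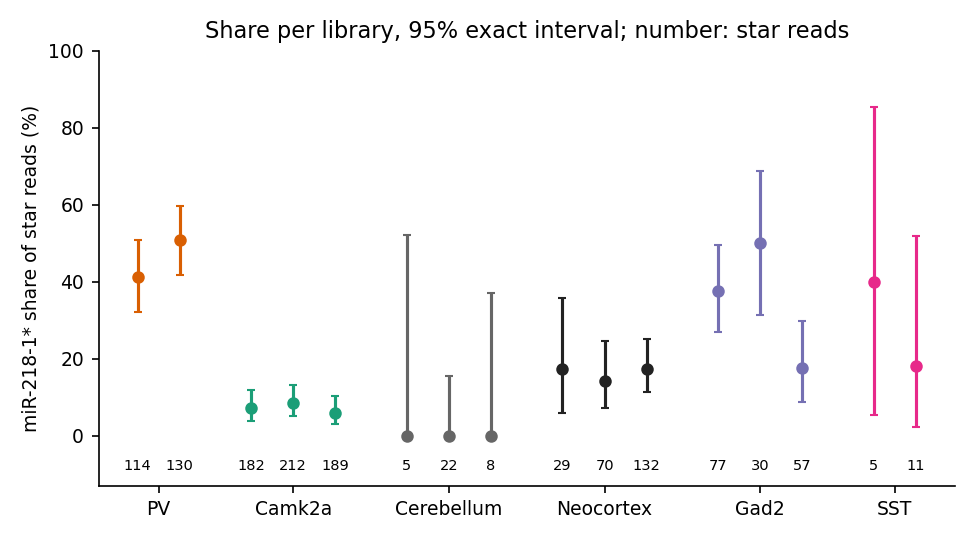
Percent of star reads that were miR-218-1* in each library with a star read, with 95% exact binomial intervals; the number under each point is its star reads. Camk2a libraries lie between 5.82% and 8.49% and PV libraries at 41.2% and 50.8%, while Cerebellum and SST rest on few reads.

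The balance was tested by limma on log2((miR-218-1* + 0.5)/(miR-218-2* + 0.5)) of reads, together with 8 other miRNAs that have 2 named star arms. Gad2 cells had a higher ratio of miR-218-1* to miR-218-2* than Camk2a cells, by 2.70 on the log2 scale (SE 0.59, adjusted p = 0.00183 by limma). This comparison called 3 of 9 ratios, 33.3%, where called means an adjusted p under 0.05. All 3 Gad2 libraries lay above all 3 Camk2a libraries, and leaving out each library in turn gave 2.22 to 3.31 with adjusted p values of 1e-04 to 0.0147 by limma. Gad2 replicate 3 had the lowest share in its group, and its mature and star levels also lay outside those of the other two.

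Camk2a against Neocortex was -1.37 (SE 0.59, adjusted p = 0.0822 by limma, 22.2% of ratios called), and Gad2 against Neocortex was 1.34 (SE 0.59, adjusted p = 0.0725 by limma, 44.4% called). Neither passed the threshold, although whole Neocortex lay between the 2 classes. Both passed when 5 reads were added to each arm, with adjusted p of 0.00561 and 0.0346 by limma. Neither passed with the replicate number as a block (adjusted p of 0.0972 and 0.0852 by limma). With 1 library left out, Camk2a against Neocortex never passed (adjusted p of 0.111 to 0.219 by limma). Gad2 against Neocortex passed only without Gad2 replicate 3 (1.94, adjusted p = 0.0107 by limma), and its adjusted p otherwise rose to as much as 0.351 by limma. PV against SST was 0.97 (SE 0.73, adjusted p = 0.301 by limma, 55.6% called), with the SST values on 5 and 11 reads.

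Cerebellum against Neocortex was -2.05 (SE 0.59, adjusted p = 0.0167 by limma, 22.2% called), lower in Cerebellum. That value moved in both directions with the treatment of low reads. In libraries of at least 10 star reads, which leaves Cerebellum replicate 2 alone in its group, it was -3.19. With 5 reads added to each arm it was 0.29 (adjusted p = 0.928 by limma); every Cerebellum library had 0 miR-218-1* reads. It also missed the threshold without Cerebellum replicate 2 (-1.47, adjusted p = 0.0758), without Neocortex replicate 1 (-1.97, adjusted p = 0.0537) or without Neocortex replicate 3 (-2.01, adjusted p = 0.0525), all by limma. No balance could be formed for Purkinje cells, which had no star read.

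Star reads as a share of all reads from the 2 hairpins give a second ratio, of star to mature strand in Ago2. Star reads were under 1% in every library. The share was 0.534% ± 0.114 (SD, n = 3) in Neocortex, 0.340% ± 0.0417 (SD, n = 2) in SST, 0.311% ± 0.197 (SD, n = 3) in Gad2 and 0.291% ± 0.0393 (SD, n = 3) in Camk2a. It was 0.169% ± 0.0102 (SD, n = 2) in PV and 0.142% ± 0.0460 (SD, n = 3) in Cerebellum. By library it was 0.631%, 0.561% and 0.408% in Neocortex and 0.105%, 0.194% and 0.127% in Cerebellum, without overlap.

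In Gad2 cells the libraries stood at 0.236%, 0.163% and 0.535%, with replicate 3 above the other two. The SST libraries stood at 0.370% and 0.311% and the PV libraries at 0.162% and 0.176%. In Purkinje cells 0 of 1094 pooled reads were star reads, which allows a share of up to 0.274% by the limit of 3 reads. The exact binomial upper bound was 0.337%, above the mean share in PV, Cerebellum, Camk2a and Gad2. By the exact bound, a Purkinje share like that of these groups was therefore not excluded. The limit of 3 reads lay below the means of Gad2 (0.311%) and Camk2a (0.291%) and above those of PV and Cerebellum.

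**Figure D4:**
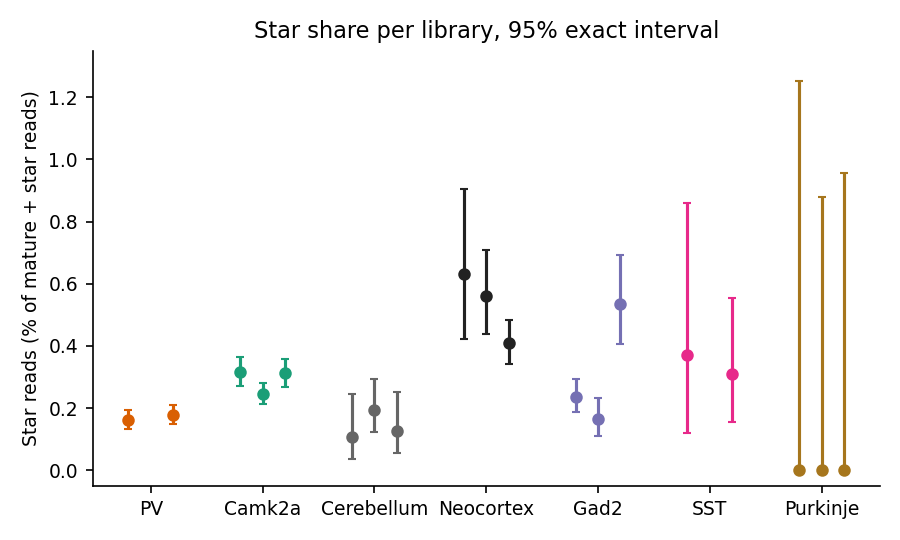
Star reads as a percent of mature and star reads of miR-218 in each library, with 95% exact binomial intervals. Neocortex libraries (0.408% to 0.631%) lie above Cerebellum libraries (0.105% to 0.194%), and the Purkinje points at 0 have intervals that reach 0.881% to 1.25%.

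As log2((star + 0.5)/(mature + 0.5)) of reads, the star share in Cerebellum against Neocortex was -1.87 (SE 0.38). Leaving out each library in turn gave -2.09 to -1.70. The Cerebellum libraries held 5, 22 and 8 star reads, so this value rests on few reads of shallow libraries. The mature strand was 1.33-fold higher in mean RPM in Cerebellum while both star arms were lower there.

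Camk2a against Neocortex was -0.87 (SE 0.38) and Gad2 against Neocortex was -0.94 (SE 0.38), so that both tagged classes had lower mean star shares than whole Neocortex. Without Gad2 replicate 3, which overlapped Neocortex, the second was -1.42. Gad2 against Camk2a was -0.07 (SE 0.38), and its sign turned with 1 library left out (-0.55 to 0.31). PV against SST was -1.10 (SE 0.46), and -1.72 with 5 reads added to each arm.

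The miRNAs whose levels over the 7 groups were most like those of miR-218 were sought among the 170 others that averaged 100 RPM or more, by Pearson's r of log2(mean RPM + 0.1). They were miR-27a (0.90), miR-129-2-3p (0.82), miR-23a (0.77), miR-674 (0.76) and miR-15a (0.76). The least alike were miR-652 (-0.90), miR-98 (-0.86) and miR-93 (-0.86). The points are 7 group means that share libraries and scaling, and r is a description with no test.

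These likenesses rested on Purkinje cells. Over the 6 other groups r with miR-218 was 0.40 for miR-27a, 0.17 for miR-129-2-3p, 0.061 for miR-23a, -0.12 for miR-674 and -0.31 for miR-15a. miR-27a stood at 22.3 ± 9.61 RPM (SD, n = 3) in Purkinje and 977 ± 124 RPM (SD, n = 3) in Camk2a cells, its highest group. miR-129-2-3p stood at 79.98 ± 21.4 RPM (SD, n = 3) in Purkinje and 9812 ± 892 RPM (SD, n = 3) in Cerebellum, above its Camk2a level of 5299 ± 823 RPM (SD, n = 3). In PV cells, where miR-218 was highest, miR-129-2-3p was at 1087 ± 148 RPM (SD, n = 2), below SST. The pattern shared with miR-218 was thus the low Purkinje level, not the order of the other groups.

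Among the miRNAs least like it, miR-652 was at 3151 ± 376 RPM (SD, n = 3) in Purkinje and 368 ± 64.2 RPM (SD, n = 3) in Camk2a cells. miR-93 kept an r of -0.71 over the 6 groups without Purkinje, against -0.51 for miR-652 and -0.33 for miR-98. miR-93 was lowest in PV cells, at 277 ± 30.1 RPM (SD, n = 2).

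**Figure D5:**
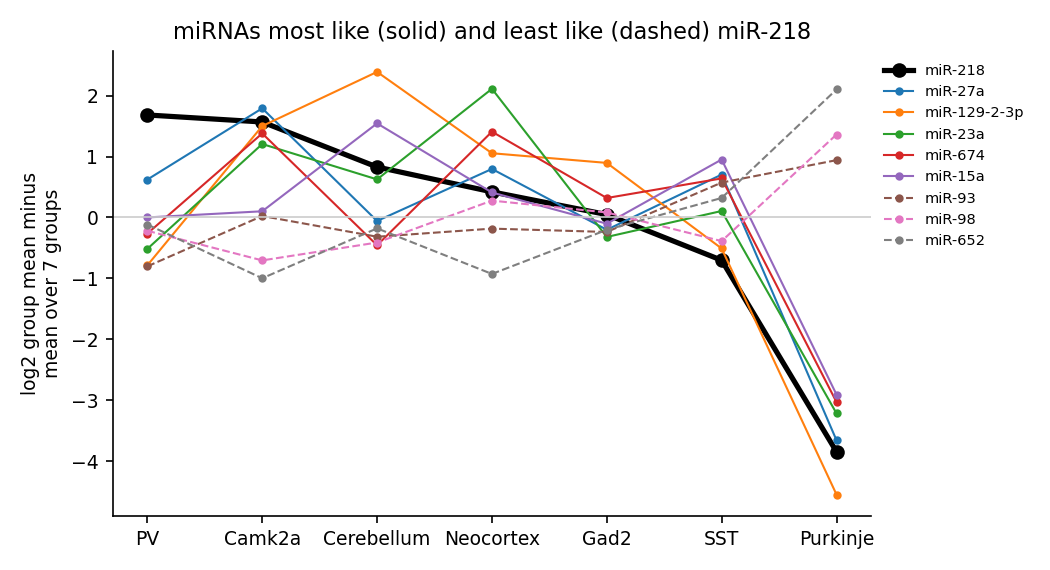
Log2 group mean minus its mean over the 7 groups, for miR-218 (thick line), the 5 miRNAs most like it (solid) and the 3 least like it (dashed). All 5 share the low Purkinje value of miR-218, and they differ from it and from each other over the remaining groups.

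Other miRNAs of introns, from a list of 55 hairpins, give the setting for an intronic miRNA. In GENCODE M21, 50 of the 55 were found by name, each with at least 1 copy inside a protein-coding gene on the same strand. All 55 stayed in the list, and 96 of its arms were tested by limma. In Purkinje against Cerebellum 27 were higher and 43 lower (68.6% of all 522 miRNAs called), with a median log2 change of -0.35 against -0.18 over all miRNAs. With edgeR on recovered reads the counts were 32 higher and 33 lower, but 28 and 42 with TMM-divided values and 28 and 38 with DESeq2. miR-204 of Trpm3 (-7.55) and miR-153 of Ptprn2 (-3.78) were among the lower ones, and miR-218, at -4.69, was not counted in the list. miR-204 was also one of the ependymal and choroid names above, at a mean of 1472 RPM in Cerebellum, where that list summed to a mean of 1658 RPM. The intronic list also shared miR-211 with those names, miR-338 with the oligodendrocyte names and miR-126 with the vascular names. In Purkinje against Gad2 26 were higher and 35 lower (55.0% called over all miRNAs).

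In Camk2a against Neocortex 19 were higher and 26 lower (44.8% of all miRNAs called), and in Cerebellum against Neocortex 23 were higher and 32 lower (55.6%). The excess of lower members turned round in these 2 comparisons and in Purkinje against Gad2 with TMM-divided values, to 25 and 20, 31 and 28, and 34 and 30. Gad2 against Neocortex had 17 higher and 34 lower (45.0% of all miRNAs called), and Gad2 against Camk2a had 18 and 28 (38.1%). miR-128 of Arpp21 and R3hdm1 was 17.5-fold lower in Gad2 than in Camk2a cells, at 9122 ± 3497 against 153461 ± 14821 RPM (SD, n = 3 each). In PV against SST 2 were higher and 37 lower (29.1% of all miRNAs called, of which 13.8% were higher on total reads and 51.7% with TMM-divided values), and with TMM-divided values the list had 4 higher and 23 lower. miR-551b was 44.4-fold lower in PV cells, the opposite of miR-218 in the same comparison.

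The neuronal list held 33 arms of miRNAs known from neurons, such as miR-124, miR-9 and miR-137, and shared 10 names with the intronic list. In Purkinje against Cerebellum 8 were higher and 18 lower, 78.8% of members against 68.6% of all miRNAs. The counts were 10 and 14 with edgeR on recovered reads, 8 and 17 with TMM-divided values and 8 and 15 with DESeq2. In Purkinje against Gad2 4 were higher and 18 lower, 66.7% against 55.0%. miR-137 was 211-fold lower in Purkinje than in Gad2 cells, while miR-138 was 21.3-fold higher in Purkinje than in Cerebellum. In Camk2a against Neocortex 9 were higher and 6 lower, led by miR-129-5p (3.85-fold higher), a share of 45.5% near the 44.8% of all miRNAs. In Gad2 against Camk2a 4 were higher and 16 lower (60.6% against 38.1%), and 1 and 16 with TMM-divided values. In Cerebellum against Neocortex 5 were higher and 21 lower (78.8% against 55.6%), and in Gad2 against Neocortex 5 were higher and 13 lower (54.5% against 45.0%). PV against SST had 2 higher and 11 lower (39.4% against 29.1%), but 5 and 8 with TMM-divided values and 5 and 11 with DESeq2. There miR-137 was 11.6-fold lower in PV cells and miR-218 5.28-fold higher.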

How the data were processed

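Per the labels' protocols, 19 libraries of Ago2-bound small RNA were PCR-amplified after adaptor ligation and read on a Genome Analyzer II. Reads were mapped with Bowtie to mm9, per the submitters' processing notes; no Bowtie version is stated there. The deposited signal of 528 miRNA names is scaled per 1000000 miRNA reads, per the file headers. Since the columns each totalled 10000000, RPM was taken as the value divided by 10. Whole reads were recovered from each column, with 100% of values within 0.1 reads of a whole number, and depth was 1229834 to 14249087 reads.

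Samples were grouped by title. limma 3.58.1 (R 4.3.3) with a trend was fitted to log2(deposited value + 1) of 522 miRNAs (value of 1 or more in 2 libraries), with 7 group means and Benjamini-Hochberg adjustment over miRNAs, separately for 7 comparisons. Arm ratios of recovered reads had 0.5 added to each arm. Star share used 170 miRNAs with 20 or more summed reads in 2 libraries and, on average, 5 or more per arm. The balance of star arms used 9 miRNAs, without a trend, and was set to missing where a library had no star read, which drops all Purkinje libraries; the planned design did not state that step. Fitted star shares of Purkinje depend on the added 0.5 and are not given. The planned test of star share is not reported, since its denominator is the level by which miR-218 was chosen; its log2 changes are given with no p. On simulated data the levels test recovered all of the larger changes made and a part of the smaller. The only arm ratio simulated was the star share. Its test made more false calls than its threshold for arms with few reads in shallow libraries. The test of balance was not simulated.

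The members, lists and tests were chosen with earlier results of these data known. Named miRNAs were the members, the 5 most and 3 least like miR-218, and called list members of largest change with at least 100 RPM over the 2 groups. miR-28, miR-190, miR-126, miR-301a and miR-873 of the intronic list were not matched by name in GENCODE M21. Alternatives were TMM-divided values, edgeR 4.0.16 and DESeq2 1.42.0 on recovered reads, another pseudocount, no filter, other read minimums, a replicate block and leaving out each library.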

Additional observations from a re-analysis of the deposited data

How the results depend on the processing

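miR-218 kept the sign of its change in all 7 comparisons under every alternative run. With TMM-divided values its log2 change was 0.71 in Cerebellum against Neocortex and 3.04 in PV against SST, and with DESeq2 on recovered reads 0.72 and 2.92. With edgeR it was 0.45 in Cerebellum against Neocortex, near the main value of 0.42, and 2.85 in PV against SST. The edgeR values were -4.39 in Purkinje against Cerebellum and 1.46 in Camk2a against Neocortex. On the recovered reads (100% of values whole) edgeR called 294, 338, 276, 281, 234, 313 and 123 miRNAs and DESeq2 282, 331, 259, 260, 225, 300 and 129, against 290, 358, 234, 235, 199, 287 and 152 by limma. The order is Cerebellum against Neocortex, Purkinje against Cerebellum, Camk2a and Gad2 against Neocortex, Gad2 against Camk2a, Purkinje against Gad2, and PV against SST. Leaving out 1 library gave 94 to 130 calls in PV against SST, 94 without PV replicate 1; with 1 library left in a group, it was assumed to vary like the others.

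With 5 reads added to each arm, star share was -0.95 in Camk2a against Neocortex, -0.92 in Gad2 against Neocortex, 0.03 in Gad2 against Camk2a and -1.72 in PV against SST, and balance was 0.29 in Cerebellum against Neocortex, -1.41 in Camk2a against Neocortex and 1.08 in Gad2 against Neocortex. With at least 50 reads per arm, star share in Camk2a against Neocortex was -0.87, and balance had no value, since miR-218-1* has too few reads. Leaving out 1 library, star share ran from -1.42 to -0.57 in Gad2 against Neocortex and from -0.55 to 0.31 in Gad2 against Camk2a; balance ran from -2.49 to -1.47 in Cerebellum against Neocortex and from 0.85 to 1.94 in Gad2 against Neocortex. In libraries of at least 10 star reads, a limit chosen after seeing the data, balance was -1.37 in Camk2a against Neocortex and 1.34 in Gad2 against Neocortex (adjusted p = 0.0357 and 0.0273 by limma). Under that limit balance was -3.19 in Cerebellum against Neocortex and 1.69 in PV against SST, with only 1 library left in Cerebellum and in SST. The cause of these shifts was not tested.

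Same-numbered libraries of different groups correlated at -0.23 to 0.18, and 9 of 19 correlated best with their own number. The share of such matches by chance was not computed, so whether replicate numbers pair the samples is not settled. With the replicate number as a block, balance in Gad2 against Camk2a was 2.70 (adjusted p = 0.00322 by limma), and the block changed no call of balance.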
